A study of Mus musculus with 28 samples.

Results

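The response of Tgfbr1-deficient (KO) CD4+ T cells to TGF-β plus IL-4 was taken from 6 of the 24 RNA-seq libraries of a study with 28 samples: 3 KO libraries cultured with both cytokines and 3 KO control libraries. The members were chosen by the place of their column in the deposited table of expression values, under the rule that columns follow the library number, so that columns 13, 17 and 21 were taken as control cultures and columns 16, 20 and 24 as cultures with both cytokines. For the KO cells this order was inferred and is not proven. It goes against the headings of the table: only 2 of the 6 columns used carried the heading of the library assigned to them, and 4 carried another. Among the WT columns, 8 of 8 libraries whose genes at 0 could be matched with read counts listed by the study sat at the place of their library number, and 2 of 8 at the place of their heading. The other WT columns were placed by the same order without a match. No such match was made for a KO library, and the separation of values between KO columns was not used to set the order. By heading, the counts of called genes of the comparisons, the values of Gata3 and the changes of some genes that were not called are given. Other RNA-seq values are by place.

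All mice carried floxed Tgfbr1 (Tgfbr1 f/f) and a tamoxifen-inducible Cre (Ert2-cre+) on the C57BL/6 background. KO mice had received tamoxifen, which activates Cre, and WT mice oil, so tamoxifen and loss of the gene cannot be told apart. This Cre is not restricted to T cells. The study used young adults of both sexes and gives neither age nor sex for single samples. In the 6 libraries Xist had 0.946 to 2.14 RPKM and the Y-linked Ddx3y, Eif2s3y, Kdm5d and Uty were at or below 0.027, so the libraries did not differ in these genes by culture. Naïve CD4+ CD62L+ T cells were purified with magnetic beads and stimulated through CD3 and CD28 in medium without added cytokine (control), with either cytokine or with both. The KO control cells thus shared the genotype, the tamoxifen and the T cell receptor stimulation of the treated cells and lacked only the cytokines. The length of culture before RNA was taken is not given in the sources used here. There were 3 libraries per group, numbered 1 to 3 in the labels, which do not say what the number stands for. Expression was given as RPKM (reads scaled by the length of the gene and by the mapped reads of the library), which holds no read totals. The steps between low values put the depth of the 6 libraries between 0.602 and 1.06 of that of KO control 1, with KO TGF-β + IL-4 replicate 2 the shallowest.

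TGF-β signals through a complex of type I and type II receptors, and Tgfbr1 encodes the type I kinase, which phosphorylates Smad2 and Smad3. IL-4 binds a receptor of IL-4Rα and the common γ chain and activates Stat6, which turns on Gata3 and the Th2 program. Given together with T cell receptor stimulation, the cytokines drive naïve CD4+ T cells to become Th9 cells, which make IL-9. The comparison asked which part of the transcriptional response to both cytokines was present in cells that lacked Tgfbr1.

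Tgfbr1 itself had an RPKM of 2.32, 2.55 and 3.05 in KO control replicates 1 to 3 and of 3.45, 5.18 and 3.35 with TGF-β + IL-4 (adjusted p = 0.21 by limma). WT control libraries held 3.02 to 3.31 RPKM, and WT libraries with both cytokines held 17.6 to 20.7. A value over the whole gene also counts reads from outside the deleted part, so the similar control values did not check the genotype.

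In KO cells, the genes that were higher with TGF-β + IL-4 included Gata3, Ccr8, Ccr4, Socs1, Cish and Il4ra of the IL-4 and STAT6 response list, and Csf1 and Ccl17, which are not on it, while Nrn1, Lta, Id3 and the chemokine genes Ccl3, Ccl4 and Xcl1 were lower. Of 9653 genes whose mean RPKM reached 1, 123 (1.27% of those tested) were called higher and 62 (0.642%) lower, 185 (1.92%) in all. A call needed a limma p under 0.01 after Benjamini-Hochberg adjustment and a change over 1.5-fold, both on log2(RPKM + 1). The median change over all genes tested was 0.012 on this scale. Changes of genes with a low level are understated by the pseudocount of 1. With the columns as headed, 0 of 9573 genes were called by limma, the smallest adjusted p was 0.0244, and 887 genes had an unadjusted p under 0.05, against 1430 by place. The count fell to 88 without KO control replicate 1, 81 without KO control replicate 2, 119 without KO control replicate 3 and 88 without KO TGF-β + IL-4 replicate 3. Without each library in turn 70 genes (58 higher and 12 lower) were called every time.

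**Figure D1:**
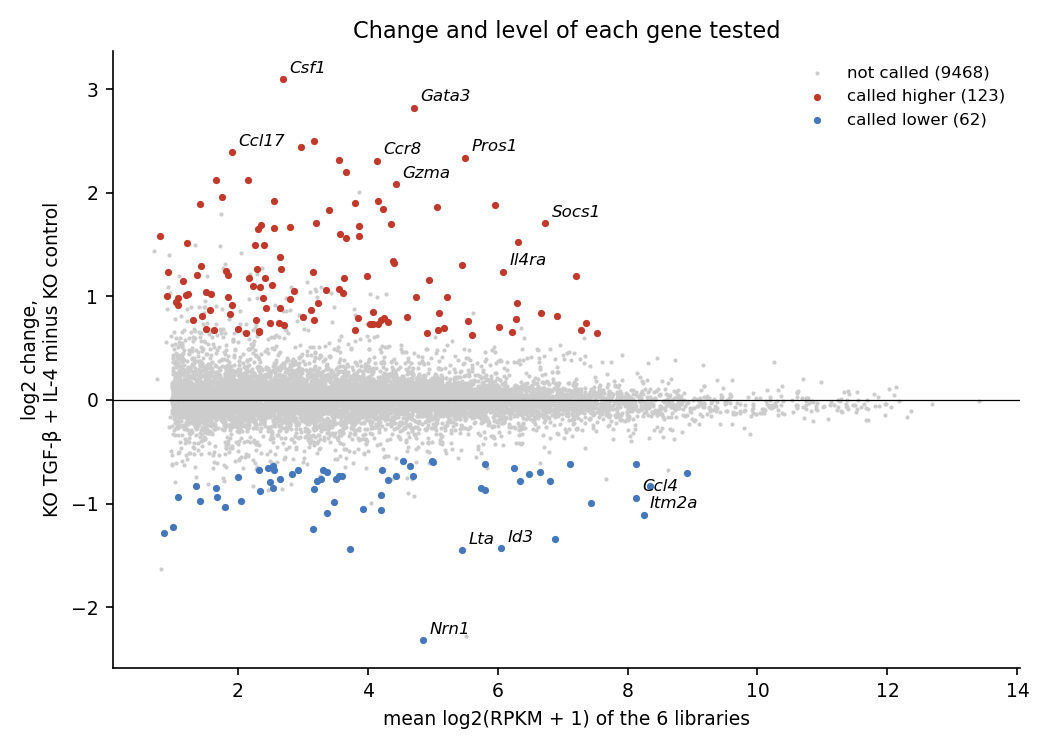
Log2 change from KO control to KO TGF-β + IL-4 (vertical axis) against the mean log2(RPKM + 1) of the 6 libraries (horizontal axis). Each point is 1 of 9653 genes, coloured where called: 123 higher in red and 62 lower in blue, with Csf1 at 3.10 and Nrn1 at -2.31 as the outermost called genes.

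Csf1, which encodes the growth factor of macrophages, had the largest rise on the log2(RPKM + 1) scale. Its RPKM was 1.15, 1.55 and 0.999 in KO control replicates 1 to 3 and 18.4, 17.5 and 18.2 in KO TGF-β + IL-4, a log2 change of 3.10 (SE 0.11, adjusted p = 7.46e-06 by limma) and 14.6-fold between means. Genes near 0 in control can exceed this as a ratio, such as Ccl24, chosen after its values were seen, with means of 0.0076 and 2.09 RPKM. Gata3 (chr2:9778705-9811661, mm9, minus strand), the transcription factor of Th2 cells, rose from 8.91 ± 0.583 (SD, n = 3) to 69.4 ± 9.41 (n = 3), 7.79-fold. Its 6 values were 8.51, 8.65 and 9.58 in control and 59.0, 72.0 and 77.3 with both cytokines, so the groups lay far apart. As headed, the Gata3 columns ran from 7.09 to 58.8 in control and from 8.60 to 77.3 with both cytokines, and the groups overlapped.

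**Figure D2:**
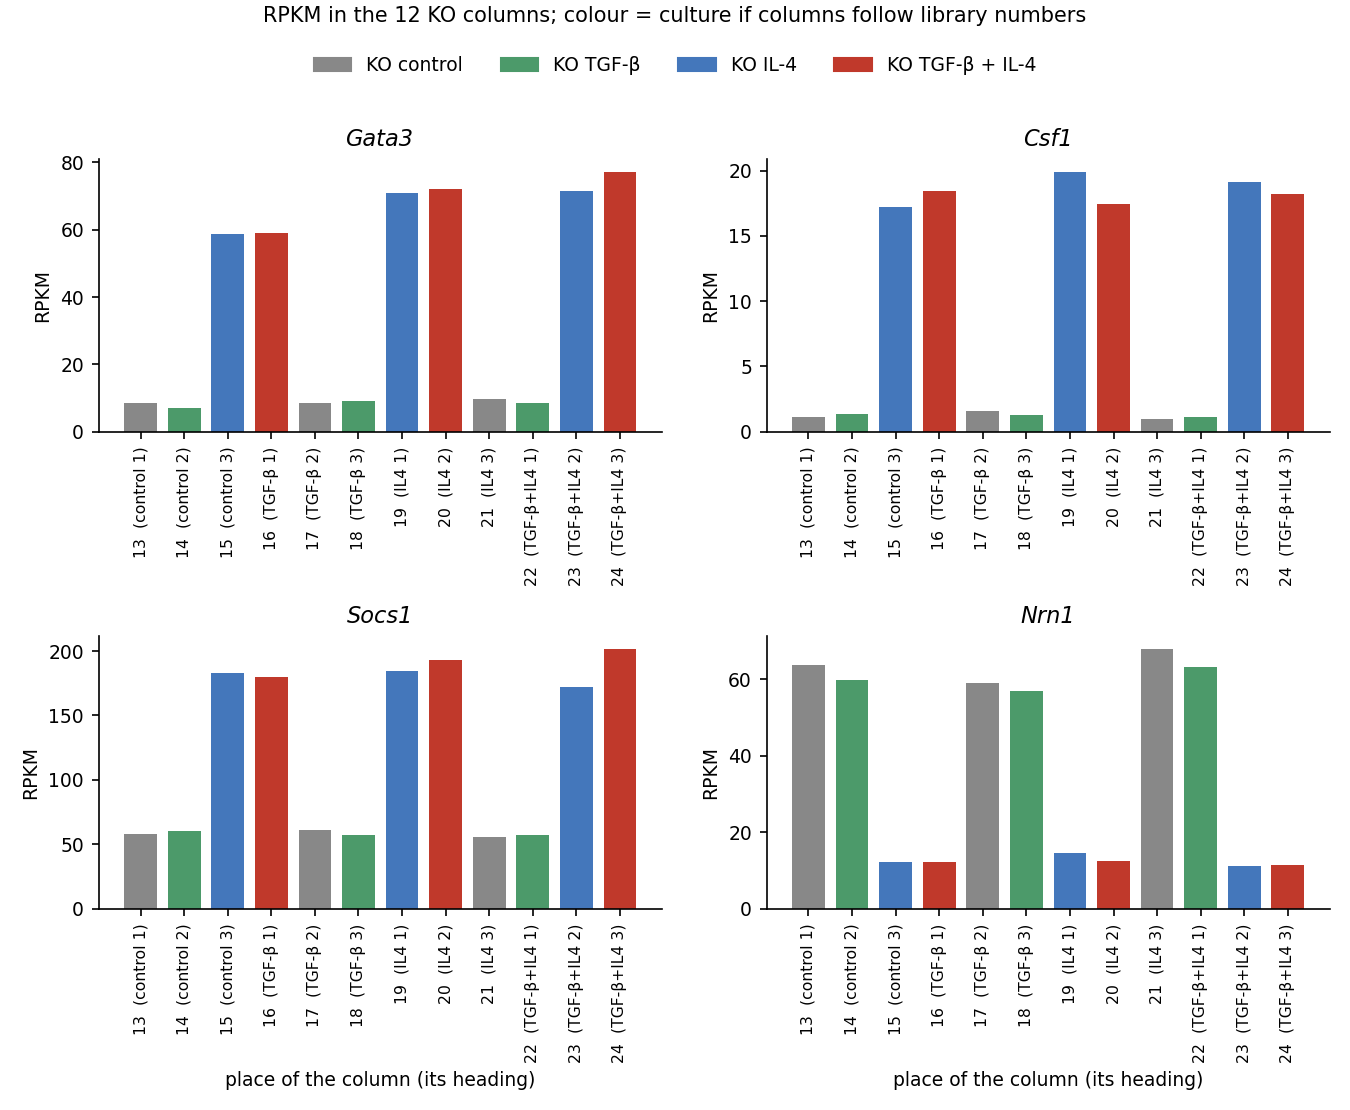
RPKM of Gata3, Csf1, Socs1 and Nrn1 (vertical axes, from 0) in the 12 KO columns in table order, with the heading of each column in brackets; bars are coloured by the culture each column holds if columns follow library numbers. Gata3 was 7.09 to 9.58 in 6 columns and 58.8 to 77.3 in the other 6, and columns of the same heading fell on both sides.

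Chemokines and chemokine receptors were also among the called genes. Ccl17, a ligand of Ccr4, had 0.548, 0.401 and 1.04 RPKM in control and 6.01, 7.18 and 10.2 with TGF-β + IL-4 (log2 change 2.39, adjusted p = 0.000365 by limma). Its receptor Ccr4 rose from 4.62 ± 0.478 to 18.9 ± 0.775 RPKM (SD, n = 3). Ccr8, another receptor of Th2 and regulatory T cells, rose from 6.97 ± 0.851 to 38.5 ± 3.79 (n = 3). The level of Ccr8 in KO cells with TGF-β alone was 13.4, 16.2 and 15.4 RPKM, above all 3 control values of 6.14 to 7.84.

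The remaining genes among the 12 largest rises were Atf3, a stress-induced transcription factor (2.49 on the log2 scale), Ralgds, an exchange factor of Ral GTPases (2.44), Pros1, which encodes the anticoagulant protein S (2.34), Slc2a6, a sugar transporter gene (2.32), Gsn, which encodes the actin-severing protein gelsolin (2.20), Timd2 (2.13), Id1 (2.12) and Gzma, which encodes granzyme A (2.08). Their libraries did not overlap between the groups, which adds no support because the genes were chosen for large called rises in these libraries. Gzma had 8.83, 8.45 and 11.7 RPKM in control and 31.0, 73.8 and 36.2 with both cytokines, with the highest value in KO TGF-β + IL-4 replicate 2. It lost its call when any control library or KO TGF-β + IL-4 replicate 3 was left out.

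Negative regulators and transducers of cytokine signals rose. Socs1 (chr16:10783901-10785629, mm9, minus strand), an inhibitor of Jak kinases, had 58.0, 60.7 and 55.4 RPKM in control and 179.7, 193 and 202 with TGF-β + IL-4 (log2 change 1.70, SE 0.07, adjusted p = 8.98e-06 by limma). Cish, another member of this family, rose 2.90-fold, with 51.3, 37.3 and 50.8 RPKM in control and 146, 122 and 136 with both. Il4ra, the specific chain of the IL-4 receptor, was at 41.8, 42.4 and 45.6 in control and 86.1, 131 and 97.4 with both. Its call was lost without KO control replicate 1, KO control replicate 2 or KO TGF-β + IL-4 replicate 3. Stat5a rose from 75.3 ± 1.32 to 136 ± 7.53 RPKM and Stat5b from 27.4 ± 0.604 to 45.1 ± 3.09 (n = 3), while Stat6, the transducer of IL-4, had a log2 change of -0.094 (adjusted p = 0.725).

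Of the genes that fell, Nrn1, which encodes neuritin, had the largest fall on the log2(RPKM + 1) scale. Its RPKM was 63.9, 59.2 and 68.0 in control and 12.1, 12.4 and 11.5 with TGF-β + IL-4, a log2 change of -2.31 (SE 0.07, adjusted p = 7.46e-06 by limma) and 5.31-fold between means. By the ratio of means the low genes Tal2 and Igfbp7 fell further, 11.1-fold and 6.72-fold. Lta, which encodes the cytokine lymphotoxin α, fell from 71.5 ± 3.53 to 25.6 ± 2.28 (SD, n = 3). Id3, an inhibitor of E proteins, fell from 109 ± 9.62 to 39.6 ± 1.79 (n = 3). The other genes of the 12 largest falls were Bdh2, Rgcc, a regulator of the cell cycle, Tal2, Tmem38b, Igfbp7, Itm2a, Pou2af1, a coactivator of octamer factors, Ubash3b, which restrains T cell receptor signals, and Slc9b2, with log2 changes from -1.44 to -1.05. Tal2 and Igfbp7, both at or below 0.358 RPKM in every library with both cytokines, each lost the call without KO TGF-β + IL-4 replicate 1 or 3. Without KO control replicate 1 Igfbp7 lost its call and Tal2 did not pass the filter, and without KO control replicate 2 neither passed it.

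**Figure D3:**
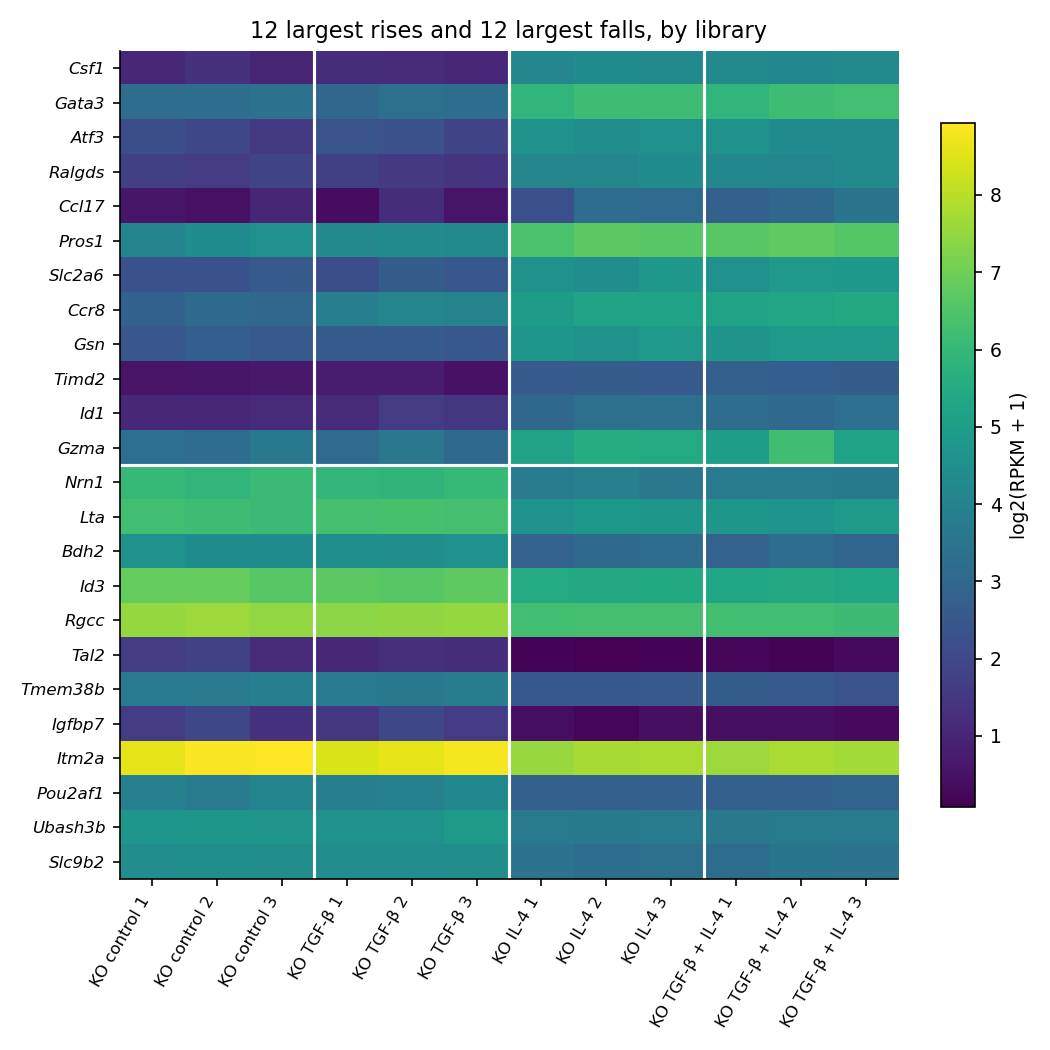
Level of the 12 called genes with the largest rises (upper rows) and the 12 with the largest falls (lower rows) in the 12 KO libraries by place, as log2(RPKM + 1) on a colour scale. The IL-4 libraries resemble the TGF-β + IL-4 libraries, as for Csf1 with 17.2 to 19.9 and 17.5 to 18.4 RPKM, and the TGF-β libraries resemble the control libraries, with 1.15 to 1.33 and 0.999 to 1.55.

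KO cells with both cytokines were next set against KO cells with IL-4 alone, to see what TGF-β added without Tgfbr1. Of 9660 genes, 0 were called by limma in either direction (0% of those tested), the smallest adjusted p was 0.353, and 284 genes (2.94%) had an unadjusted p under 0.05. The count was 0 under each alternative as well. The absolute difference had a median of 0.054 and a 95th percentile of 0.25 on the log2 scale. Over the 123 genes called higher against control, both minus IL-4 alone had a median of 0.048 and ran from -0.37 to 0.86, and over the 62 called lower it had a median of -0.045 and ran from -0.36 to 0.29. Gata3 had 58.8, 71.0 and 71.4 RPKM with IL-4 alone, a difference from both cytokines of 0.046 on the log2 scale. Nrn1 had 12.3, 14.5 and 11.2. The libraries of both cytokines take part in this comparison and in the one with control, which therefore are not independent.

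Several genes lay apart between these cultures without passing the threshold. Foxp3, the transcription factor of regulatory T cells, had 0.680, 0.612 and 0.542 RPKM with IL-4 alone and 1.27, 1.89 and 1.81 with both (adjusted p = 0.353, unadjusted p = 0.000363, by limma), against 4.76, 3.95 and 3.92 with TGF-β alone and 1.46, 1.36 and 1.48 in control. The KO cells with TGF-β alone thus had the highest values. Aqp3, an aquaporin gene, had 0.780, 1.49 and 1.49 RPKM in KO control, 4.58, 4.21 and 3.88 with TGF-β, 1.36, 2.27 and 0.978 with IL-4 and 3.14, 6.31 and 4.55 with both. Its change from control to both had an adjusted p of 0.0117 by limma, and ran from 0.00198 to 0.831 over its alternatives, on both sides of the threshold. In WT cells the gene went from 1.99 to 2.60 RPKM in control to 82.7 to 92.1 with both.

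Il9, the cytokine gene that defines Th9 cells, stayed near the lower limit of the filter. KO control replicates 1 to 3 had 0.583, 0.275 and 0.250 RPKM and KO TGF-β + IL-4 had 1.38, 2.72 and 1.46 (adjusted p = 0.018 by limma, not called). In one fit of all 12 KO libraries its adjusted p was 0.00873, which passes, and it ran from 0.00873 to 0.976 over all alternatives. WT control libraries held 8.15 to 10.9 RPKM of Il9 and WT libraries with both cytokines 33.6 to 36.1. Dbp, a clock output factor, was at 2.42, 2.38 and 3.05 RPKM in KO control and 2.42, 3.79 and 2.49 with both (adjusted p = 0.847). E2f8, an atypical E2F repressor, was at 7.77 to 8.76 and 8.77 to 9.11 (adjusted p = 0.674). Il4 and Smad7 did not reach the minimum mean of 1 RPKM.

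The change in KO cells was then compared with the change in WT cells by an interaction term over 12 libraries. Of 9756 genes, 408 (4.18%) were called, 137 (1.4%) with a change that was higher in KO cells and 271 (2.78%) with a change that was lower. With the columns as headed 0 of 9706 were called, with 281 at an unadjusted p under 0.05. Without KO TGF-β + IL-4 replicate 2, 681 genes were called (166 and 515). Genes whose change was lower in KO cells included Aqp3 (difference of log2 changes -3.43, SE 0.26), Capg, an actin-capping protein gene (-2.38), Foxp3 (-2.25), Tgfbr1 (-1.83), Dbp (-1.32) and Skil, a feedback inhibitor of Smads (-0.86). Capg was at 148 to 155 RPKM in KO control and 129.6 to 138 in KO cells with both cytokines, against 204 to 213 and 940.1 to 972 in WT cells.

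Genes whose change was higher in KO cells included Gzmb, the granzyme B gene (2.65, SE 0.16), Gata3 (2.20), Gzma (2.16), Ifng (2.14), Atf3 (2.05), Gfi1 (1.88), Satb1 (1.81) and Timd2 (1.56). Gata3 in WT cells went from 21.2 ± 1.64 to 33.0 ± 0.623 RPKM (SD, n = 3), with a lower end point and a higher start than in KO cells. Ifng, the Th1 cytokine gene, had a mean of 11.7 ± 3.36 RPKM in KO control and 24.3 ± 5.60 with both (adjusted p = 0.0385 by limma, not called), whereas in WT cells it fell from 65.0 ± 5.88 to 28.9 ± 2.96 (n = 3). Gzmb in WT cells fell from 230.0 ± 32.0 to 52.0 ± 5.54 RPKM, and in KO cells had means of 103 and 149.6. For Ccr4 the changes were 1.83 in KO and 1.76 in WT cells (difference 0.066, adjusted p = 0.74), and for Id3 -1.43 and -1.47 (difference 0.035, adjusted p = 0.86).

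**Figure D4:**
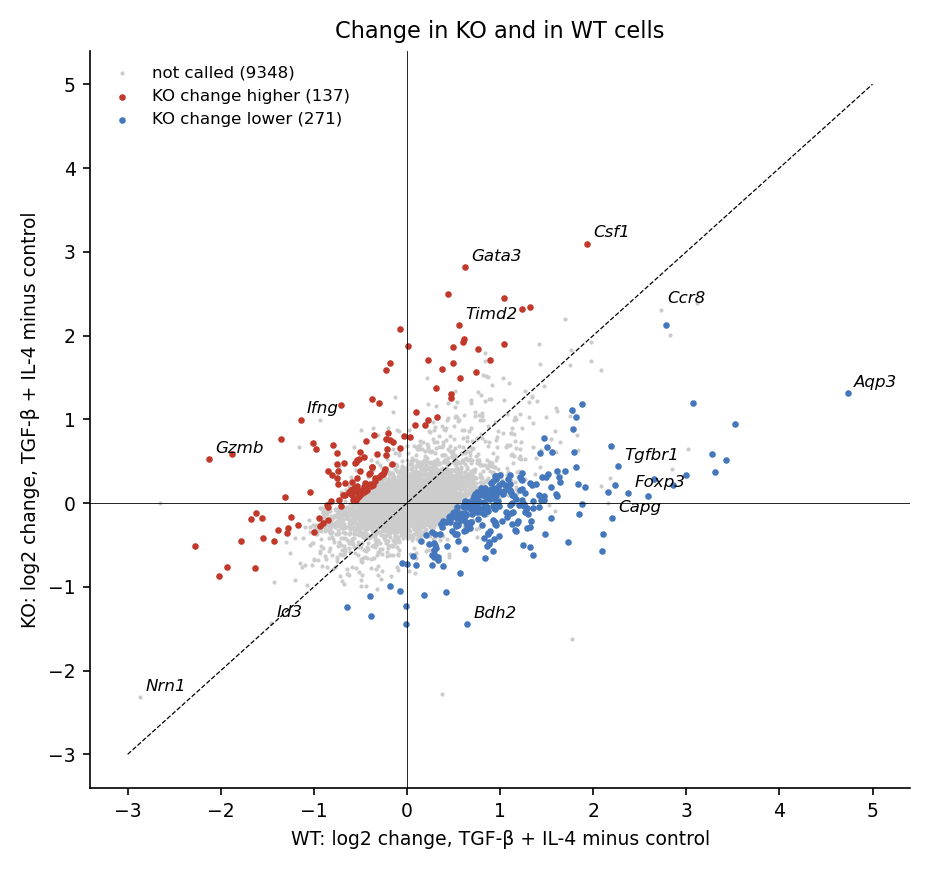
Log2 change from control to TGF-β + IL-4 in KO cells (vertical axis) against that in WT cells (horizontal axis) for 9756 genes, with the dashed line where both are equal. The 137 genes in red had a higher and the 271 in blue a lower change in KO cells by the interaction test; Gata3 is at 2.82 in KO and 0.62 in WT, Aqp3 at 1.31 and 4.74.

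Over the 123 genes called higher in KO cells the median change in WT cells was 0.62, and over the 62 called lower it was -0.52, against 0.017 for all genes tested. Of these genes, 42 of the 123 had a change called higher in KO than in WT cells and 9 a change called lower, and of 60 tested of the 62 these were 3 and 19, against 1.4% and 2.78% of all genes. The genes had been chosen by their change in KO cells, so this balance is a description.

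Gene lists were described by their counts, set against the 1.27% of tested genes called higher and the 0.642% called lower. The lists were chosen with earlier results of these data known, so their counts are a description and no independent support. Of the IL-4 and STAT6 response list, 16 of 24 genes passed the filter, 9 rose (Batf, Ccr4, Ccr8, Cish, Gata3, Gfi1, Il4ra, Nfil3 and Socs1) and 0 fell, with a median change of 1.10. Batf, an AP-1 factor of many T helper subsets, rose from 56.2 ± 3.84 to 108 ± 9.72 RPKM (SD, n = 3), Nfil3 from 7.20 ± 0.594 to 25.2 ± 1.75 and Gfi1 from 2.04 ± 0.366 to 5.85 ± 0.815. The Gfi1 call was lost without KO TGF-β + IL-4 replicate 3. The Th9 list had 6 of 16 tested genes higher (Batf, Batf3, Ccl17, Gata3, Stat5a and Stat5b), 0 lower and a median of 0.44, and shares Batf and Gata3 with the IL-4 list. Of the STAT and SOCS family, 4 of 15 rose (Cish, Socs1, Stat5a and Stat5b), and of the common γ chain receptors 1 of 7 (Il4ra).

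Of the TGF-β and Smad pathway, 13 of 28 genes passed the filter, Id1 rose (1.13 ± 0.0517 to 8.30 ± 0.660 RPKM, n = 3), Id3 fell, and the other 11 were not called. The median was 0.091. Both Id genes are inhibitors of helix-loop-helix factors. Skil had 1.67, 1.80 and 1.71 RPKM in control and 1.79, 2.02 and 1.92 with both cytokines (adjusted p = 0.731 by limma). In the interaction with genotype, 9 of 19 genes of this list were called with a lower change in KO cells and 0 with a higher one, against 2.78% and 1.4% of all genes.

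Among lists of other T cell programs, 3 of 13 Th1 genes fell and 0 rose. These were chemokines: Ccl3 fell 1.86-fold to 40.4 ± 2.03 RPKM, Ccl4 from 391 ± 50.5 to 202 ± 11.4 (SD, n = 3) and Xcl1 from 216 to 261 in control to 112 to 137. Ccl3 and Ccl4 lost their calls without KO control replicate 2, and Xcl1 without KO TGF-β + IL-4 replicate 3. Ifng, the Th1 cytokine gene on this list, went the other way by 0.996 on the log2 scale. It was not called (adjusted p = 0.0385 by limma). The Th1 factor Tbx21 had a log2 change of 0.21 (adjusted p = 0.273), and the list median was -0.18. Of 6 tested Treg genes only Ctla4, an inhibitory receptor, was called, and it fell by 0.74 on the log2 scale. That call was lost without KO control replicate 1 or KO TGF-β + IL-4 replicate 3.

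Of 10 naïve and homing genes Satb1, a chromatin organizer, rose (7.46 ± 0.602 to 24.4 ± 2.82 RPKM, n = 3) and Ccr7, a lymph node homing receptor, fell by 0.70 on the log2 scale. The Ccr7 call held only without KO TGF-β + IL-4 replicate 2. Of 12 activation cytokines and effector molecules, 1 (Gzma) rose. Of 10 clock genes, Nfil3 and Npas2 rose, and the Npas2 call was lost without KO control replicate 1, KO control replicate 2 or KO TGF-β + IL-4 replicate 3. None of 30 G1/S, 30 G2/M, 17 glycolysis, 17 amino acid and Atf4 and 12 immediate early genes was called by limma (0 in each list), with list medians from 0.029 to 0.10. Of 17 sterol and fatty acid synthesis genes Scd2, a desaturase gene, rose, and of 17 interferon-stimulated genes Usp18.

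**Figure D5:**
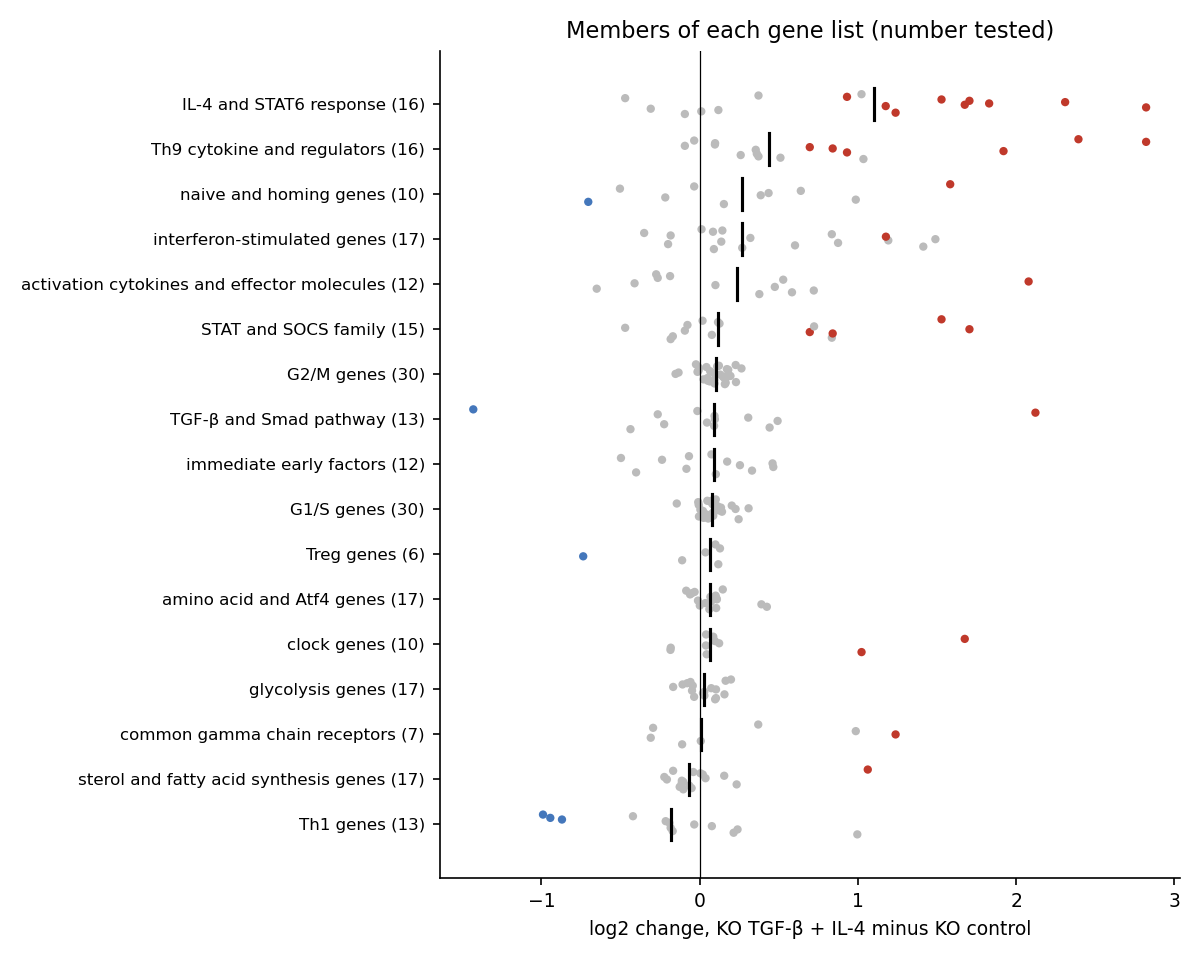
Log2 change from KO control to KO TGF-β + IL-4 (horizontal axis) of each tested gene of 17 lists, with the number tested in brackets, called genes in red (higher) or blue (lower) and the list median as a black bar. The IL-4 and STAT6 response list has the highest median, 1.10, and 9 of its 16 genes are called. The lists were chosen with earlier results of these data known.

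KO TGF-β + IL-4 replicate 2 stood apart from the other libraries. The interferon-stimulated gene Irf7 had 1.62, 19.1 and 2.32 RPKM with both cytokines and 1.01, 0.918 and 1.04 in control, and KO IL-4 replicate 2 had 6.73. Usp18 lost its call when any library except KO TGF-β + IL-4 replicate 2 was left out. Without replicate 2 of KO TGF-β + IL-4, 235 genes were called (135 higher and 100 lower).

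Cell type markers were set against the same background of 1.27% of tested genes called higher and 0.642% called lower. The median log2 change of the tested markers was 0.67 for B cells, 0.75 for myeloid cells and 0.39 for natural killer cells. It was 0.96 for dendritic cells and 0.66 for CD8 T cells, against -0.18 for CD4 T cells. The 8 CD4 T cell markers summed to 1721 to 1783 RPKM in control and 1381 to 1498 with both cytokines, and 2 of them, Cd5 (443, 434 and 415 against 243, 239 and 246) and Cd28, fell. The Cd28 call was lost without KO TGF-β + IL-4 replicate 3. The 8 B cell markers summed to 10.3 to 11.6 RPKM in control and 16.6 to 28.4 with both, and 1 of the 5 tested, Cd79b, rose, a call that was lost without KO control replicate 1, KO control replicate 2 or KO TGF-β + IL-4 replicate 3. The myeloid markers summed to 8.44 to 29.4 RPKM and 20.8 to 53.6, with 0 of 6 tested called by limma. The 5 natural killer cell markers summed to 3.64 to 3.89 and 4.74 to 8.63 (0 of 2 called). The 5 dendritic cell markers summed to 3.77 to 4.59 and 11.8 to 14.5, and of 2 tested Batf3, which activated T cells also express, was called, while the defining Flt3 and Itgax stayed at or below 0.310 RPKM. Of the CD8 markers Cd8b1 rose (13.6 to 15.4 against 24.5 to 25.1 RPKM) and Cd8a was at 1.14 to 1.32 and 1.48 to 3.85. Of the red cell markers, 3 were at 0 in all 6 libraries. The part of other cells in the changes above was not tested, and a change in the share of cells and a change in RNA per cell cannot be told apart in bulk RNA.

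Open chromatin in cells of the same genotype and cytokines was available as lists of DNase I hypersensitive sites (DHSs) for KO cells in control culture and with both cytokines, 1 library each, both numbered KO3. Their culture comes from their own labels and does not depend on the order of the RNA-seq columns. With no replicates and no read counts there is no test, and the control list is longer, 33665 against 27145 DHSs in mm9. At the genes called higher, 57 of 259 DHSs (22%) of the TGF-β + IL-4 list overlapped no DHS of the control list, against 11.6% of that whole list. At the same genes, 66 of 267 control DHSs (24.7%) overlapped none of the TGF-β + IL-4 list, against 29.3% of the whole control list. At the genes called lower, 53 of 161 control DHSs (32.9%) overlapped none of the TGF-β + IL-4 list. There 12 of 120 DHSs (10%) of the TGF-β + IL-4 list overlapped none of the control list. The whole lists also hold DHSs away from genes, and the share at all genes tested was not computed. The shares at called genes therefore have no like background and are a description. Each list had a DHS within 1 kb of the start for 60.8% of genes called higher and 54.2% of those called lower. This held for 84.6% of all genes tested, and the DHSs of the lists need not overlap there.

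Csf1 had 1 DHS at its start in both lists and 1 in its body, 10894 bp from the start and in no annotated exon, that was listed only with TGF-β + IL-4 (chr3:107552351-107552550). By fold enrichment that site ranked 83.0% from the top of its list. Timd2 had 0 DHSs in the control list and 2 with TGF-β + IL-4, ranked at 43.5% and 24.7%. Gsn had 3 within the gene that only the TGF-β + IL-4 list held, at 78.4%, 76.1% and 47.5%. Gata3 had 2 that only this list held, at 79.8% and 97.0%, both overlapping an annotated exon. Beside these Gata3 had 1 that only the control list held. Ubash3b, which fell, had 15 DHSs in the control list and 7 with both cytokines, and 8 were listed only in control. Satb1, which rose, had 7 within the gene in control and 3 with both cytokines, and 4 were listed only in control. Nrn1 and Ccl17 had no DHS in either list by this measure, and Socs1, Cish and Il4ra none that only 1 list held.

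The palindrome TTC and GAA with any 4 bases between them, a binding element of STAT6, was searched in the 250 bases before the start of genes (RefSeq, GRCm38.p6, 1 start per gene). It reads the same on both strands. It was in 12 of 88 matched promoters of genes called higher (13.6%), in 1 of 44 of genes called lower (2.27%), in 4.53% of those of all genes tested and in 5.86% of 27025 promoters. A match is a description of the letters and not a measured site. Of the 24 genes with the largest changes, Ccl17, Pros1 and Lta had it, and their windows are printed 5′ to 3′ along the gene, with the element in capitals. They are given on GRCm38.p6 as chr8:94810203-94810452 (plus strand), chr16:62854057-62854306 (plus) and chr17:35205352-35205601 (minus).
Ccl17: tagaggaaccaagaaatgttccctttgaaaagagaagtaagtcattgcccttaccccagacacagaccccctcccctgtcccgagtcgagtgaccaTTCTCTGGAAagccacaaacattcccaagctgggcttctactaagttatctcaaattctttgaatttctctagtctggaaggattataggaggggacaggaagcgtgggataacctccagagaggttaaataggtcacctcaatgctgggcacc
Pros1: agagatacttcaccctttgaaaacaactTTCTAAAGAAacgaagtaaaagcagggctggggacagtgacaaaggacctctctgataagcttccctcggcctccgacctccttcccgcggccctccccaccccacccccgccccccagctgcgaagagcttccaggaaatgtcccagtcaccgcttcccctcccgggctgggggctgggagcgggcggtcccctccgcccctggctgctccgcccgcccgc
Lta: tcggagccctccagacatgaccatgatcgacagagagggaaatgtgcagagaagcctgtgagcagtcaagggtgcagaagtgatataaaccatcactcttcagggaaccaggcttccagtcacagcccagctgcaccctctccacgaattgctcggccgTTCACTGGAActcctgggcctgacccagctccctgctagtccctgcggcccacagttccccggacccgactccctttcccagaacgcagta

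The element was also in 2688 of the 27145 DHSs of the TGF-β + IL-4 list (9.9%; median length 334 bp). Of the 11 DHSs that were listed only with TGF-β + IL-4 at the 12 genes with the largest rises, 4 held it (1 in Gsn, 1 before Pros1 and both in Timd2) and 7, that of Csf1 among them, did not. The Csf1 site (83.0% from the top of its list by fold enrichment), the Gsn site (chr2:35144602-35144832, 47.5% from the top) and 1 Timd2 site (chr11:46496459-46496731, 43.5% from the top) are printed. They are given from the plus strand of mm9, with the element in capitals. All 3 overlap no annotated exon.
Csf1 site: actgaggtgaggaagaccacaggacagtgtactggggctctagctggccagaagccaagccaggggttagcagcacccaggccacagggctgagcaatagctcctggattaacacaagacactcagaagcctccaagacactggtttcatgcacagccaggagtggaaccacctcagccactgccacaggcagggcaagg
Gsn site: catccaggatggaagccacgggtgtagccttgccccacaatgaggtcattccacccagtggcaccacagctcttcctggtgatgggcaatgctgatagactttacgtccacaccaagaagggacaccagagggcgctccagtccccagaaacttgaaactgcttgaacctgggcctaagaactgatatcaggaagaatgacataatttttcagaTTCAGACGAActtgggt
Timd2 site: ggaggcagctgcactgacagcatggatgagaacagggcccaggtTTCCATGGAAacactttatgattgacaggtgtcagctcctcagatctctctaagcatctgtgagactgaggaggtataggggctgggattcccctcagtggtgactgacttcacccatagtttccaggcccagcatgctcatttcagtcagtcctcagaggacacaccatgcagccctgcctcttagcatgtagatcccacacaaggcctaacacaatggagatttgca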

How the data were processed

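RNA-seq libraries were prepared by the Smart-seq2 method from polyA RNA, and DNase-seq libraries from the same kinds of culture. Per the submitters' processing notes, Bowtie2 and MACS2 were used with the mm9 genome. For RNA-seq, the authors deposited RPKM, scaled by gene length and sequencing depth, for 24089 genes in 24 columns. RPKM are not counts, so no count test was run, and read totals are unknown. For DNase-seq, the deposited peak lists give for each site the fold enrichment and the −log10 of the p of the authors' peak caller, called on each library alone. Only the fold enrichment was used, to rank sites within a list. The WT peak lists were not used here.

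Columns were assigned by place, as described in the results, and the order is not proven for KO libraries. Values were tested as log2(RPKM + 1) with limma 3.58.1 in R 4.3.3 (linear model, variance moderated with a trend), for genes whose mean RPKM over the fitted libraries reached 1, with the compared groups alone in each fit. A call required a p under 0.01 after Benjamini-Hochberg adjustment and a change over 1.5-fold. Filters and fits were tested on simulated data. The labels join a number from 1 to 3 to the genotype in each culture, as in KO1, without saying what the number stands for. KO libraries that share this number have consecutive library numbers. The deviations of same-numbered control and TGF-β + IL-4 libraries from their group means correlated at 0.30, -0.13 and -0.29 for numbers 1 to 3. Those of IL-4 and TGF-β + IL-4 libraries correlated at 0.27, 0.42 and 0.33. With so few libraries per group such correlations neither show nor exclude a pairing by number. The fit with the number as a replicate block was run as an alternative. The study says in general that it used at least 3 biological replicates, and it does not say so for these libraries. The labels do not say that the libraries of a group came from separate mice or cultures. The p-values therefore measure the spread between these libraries.

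Genes were named when they were among the 12 called genes with the largest rise or fall, belonged to a short list of receptors, cytokines and transcription factors of the study, or were called members of a gene list, with up to 4 more members of each list by size of change. Capg, Gzmb, Aqp3, Cd5, Cd8b1 and Irf7, and the genes named for their interaction, were chosen after their values were seen. Some results are not reported here. The comparison and the lists were chosen with earlier results of these data known. DHSs were set beside GENCODE vM1 gene models of mm9 in Python 3.11.15 (pandas 2.3.3, numpy 2.4.6), where an overlap of 1 bp sufficed, and promoters were taken from RefSeq. Figures were drawn with matplotlib 3.10.9. Alternatives were the columns as headed, a pseudocount of 0.1, every gene above 0 or a mean RPKM of at least 5, scaling by median ratios, quantile normalization, no trend, all 12 KO libraries in one fit, the replicate block, leaving out each library and a threshold of 0.05.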

Additional observations from a re-analysis of the deposited data

Results flagged for a closer look

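The change from control to TGF-β + IL-4 differed between KO and WT cells for 408 genes by the interaction test of limma, with the columns by place. With the columns as headed the count was 0. The genotypes also differed in tamoxifen, and the cause was not tested. Among the named genes the KO change was higher than the WT change, on the log2 scale, for Gzmb (2.65), Gata3 (2.20), Gzma (2.16), Ifng (2.14), Atf3 (2.05), Gfi1 (1.88), Satb1 (1.81), Timd2 (1.56), Ralgds (1.40), Batf3 (1.32), Nfil3 (1.18), Csf1 (1.17), Ccl3 (1.15), Slc2a6 (1.08), Pros1 (1.02), Cd8b1 (0.94), Batf (0.85) and Socs1 (0.81). It was lower for Aqp3 (-3.43), Capg (-2.38), Foxp3 (-2.25), Bdh2 (-2.09), Tgfbr1 (-1.83), Ubash3b (-1.49), Lta (-1.43), Dbp (-1.32), Pou2af1 (-1.28), Igfbp7 (-1.21), Slc9b2 (-0.98), Rgcc (-0.96), Skil (-0.86), Ctla4 (-0.84), Xcl1 (-0.81), Itm2a (-0.70), Id1 (-0.66) and Tmem38b (-0.60). Gata3, Gzma, Atf3, Satb1 and Timd2 rose in KO cells, and Bdh2, Lta, Ubash3b and Pou2af1 fell there.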

How the results depend on the processing

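The order of the columns decided the result: as headed, 0 genes were called in KO cells between TGF-β + IL-4 and control and 0 in the interaction with genotype. By place, the count of genes called between TGF-β + IL-4 and control was 185, 99 with every gene above 0 tested (75 higher, 24 lower) and 88 with the replicate block (71 and 17; 87 of these were among the 185), and ran from 81 to 235 without 1 library. Of the control and TGF-β + IL-4 libraries, 2 of 6 correlated best with their own number, which cannot decide whether the libraries of a number are paired. Under the other alternatives the count ran from 128 to 247. The count against IL-4 alone was 0 throughout, the replicate block included (6 of 6 libraries correlated best with their own number), and ran from 0 to 0 without 1 library. The interaction count was 408, 325 with the replicate block and from 313 to 681 without 1 library, the latter without KO TGF-β + IL-4 replicate 2. With the columns as headed the log2 changes of genes that were not called turned to -0.036 for Il9, -0.21 for Dbp, -0.040 for E2f8, 0.080 for Stat6, -0.052 for Foxp3 and -0.090 for Tbx21, and that of Dbp ran from -0.061 to 0.18 without 1 library, the former without KO TGF-β + IL-4 replicate 2. Of the calls of named genes, 46 were lost as headed, 10 with every gene above 0 tested, 8 with the replicate block and 1 without the trend. The adjusted p of the genes lost with the block (Gzma, Tal2, Igfbp7, Stat5b, Ccl3, Xcl1, Ctla4 and Cd28) ran from 5.39e-06 to 0.0333 over the alternatives by place. The cause was not tested. The relative depth was estimated from low values and the read totals are unknown. The counting error of low genes such as Il9 was not computed.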
